A study of Homo sapiens with 36 samples.

Results

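The transcripts of 10 genes that encode parts of the machinery that cleaves and polyadenylates mRNA were followed through 9 maps of protein binding to RNA. They were CSTF1, CSTF2, CSTF2T and CSTF3 of cleavage stimulation factor (CstF), PCF11 and CLP1 of cleavage factor IIm (CFIIm), the poly(A) polymerase genes PAPOLA and PAPOLG, the poly(A)-binding protein gene PABPN1, and RBBP6. PABPN1 and RBBP6 belong to neither complex and encode no polymerase. Windows were chosen by gene name and not by their values, although the 10 genes were chosen with earlier results of these data known. The exact names covered 646 of the 788098 listed windows, in 9 of the 11298 gene names in the lists. PABPN1 had no window under its own name, because the authors' annotation joins it to the readthrough gene BCL2L2-PABPN1. With joined names, which also add windows to PCF11, 711 windows in 10 genes were found. Values for PABPN1 below are from the joined name, where the parent gene and the readthrough cannot be told apart.

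The series used enhanced crosslinking and immunoprecipitation (eCLIP) in HEK293T cells, a human embryonic kidney line, with no treatment given in the labels. In eCLIP, RNA bound by a protein is recovered with an antibody and sequenced beside an input library made without that selection. Each of 9 proteins (CPSF5, CPSF6, EIF4B, GRB2, LGALS3, MBNL2, RBM10, RBM22 and RNPS1) had 2 immunoprecipitated (IP) and 2 input libraries, 36 in all. An antibody to the protein or to a V5 tag was used, and which served which protein is not stated, nor whether replicates were separate cultures, so their spread may be technical. Each list holds windows of at most 100 nt that the authors found enriched in both replicates, with reads summed over replicates. The enrichment is the authors' own log2 odds ratio of IP over input, given here as the lower and the higher of the 2 replicate values. Library depth is unknown, reads per library were not given, so no test over libraries could be run, and RNA abundance was not held equal. Where a window is not listed, lack of enrichment and lack of coverage cannot be told apart. Listed windows do not measure expression, so the cell line was not checked against marker genes.

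At the 3' end of a pre-mRNA, CstF recognises the U- or GU-rich stretch downstream of the cleavage site, CPSF recognises the poly(A) signal and cuts, and CFIIm takes part in cleavage and in termination of transcription. Poly(A) polymerase then adds the tail, which the nuclear protein PABPN1 coats. RBBP6 is needed to activate cleavage. Cleavage factor Im (CFIm), the complex of CPSF5 and CPSF6, binds UGUA upstream of poly(A) sites. Several of these factors are known to use poly(A) sites inside their own introns or to retain an intron: PCF11 and CSTF3 are known for intronic polyadenylation and PABPN1 for a retained terminal intron.

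All 10 transcripts had a window of EIF4B, a cofactor of the helicase that prepares mRNA 5' ends for translation, within the first 50 bases of a RefSeq start. The same held for 83.8% of the 8405 listed genes with a sequence in the RefSeq promoter table, so the count is near that background. The first base of a start lay in a window in 9 of 10, against 77.2%. With only 1 RefSeq start taken per transcript, as for the sequences below, the count was 8 of 10. The first 30 bases at 1 RefSeq start are shown for 8 transcripts, with capitals for the bases inside an EIF4B window, because an EIF4B window near this end was found in all 10. For CSTF1 a downstream RefSeq start was used. For CSTF2 the 30 bases begin at base 21, since its window starts at the start codon, which opens the capitals. Sequences are from RefSeq (GRCh38.p14), 5' to 3', with T for U.
PAPOLG: ATTGGCGTCGGCCGCGCTGTATTGTCATAA
PAPOLA: agttctAGAACGTTGCTGTGGTAGCGCTCG
CLP1: GTTTCCGGCGTGGGTCCGGGCAAGAACCGC
RBBP6: GCAGTGGGGCGCTCGTCCGAAGCCAGGCCG
CSTF2T: AGACGCCTCGAAGAATCCGCTATCGGCTGT
CSTF1: AGATTGGGCAGGATTCGCGCCTCCATTTTT
PCF11: GCACGACGCAGCGGTTGGGAACACAGACAT
CSTF3: AATTCATATTTGAGTGGGcggtggcgattg
CSTF2: agagctATGGCGGGTTTGACTGTGAGAGAC

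For most proteins, the share of the 10 transcripts that was listed by exact name was close to that of all genes. By exact name, CPSF6, EIF4B and RNPS1 each listed 9 of 10, against 84.2%, 89.2% and 87.0% of all gene names. CPSF5 listed 7 of 10 (61.1% of all), MBNL2 5 (62.2%), GRB2 4 (46.7%), RBM10 4 (45.1%) and RBM22 4 (23.2%). LGALS3, a lectin, listed 0 of 10, and 3.27% of all gene names. PABPN1 counts as unlisted here, because it has no window under its own name. With joined names, CPSF6, EIF4B and RNPS1 each listed 10 of 10, CPSF5 8, MBNL2 6, RBM10 5, RBM22 5 and GRB2 4. With 10 transcripts, a count 1 higher or lower moves the share by 10 percentage points, so most of these differences are small. The exact-name RBM22 count fell to 2 of 10 at q-values up to 0.05, against 10.9% of all gene names, and to 2 of 10 where at least 3 windows were required, against 6.97%. By exact name, 7 of 10 transcripts were listed for at least 5 proteins, against 64.3% of all gene names, and 3 of 10 for at least 7, against 24.8%. PAPOLA was listed for 8 of the 9 proteins, CSTF3 and RBBP6 for 7, as was PABPN1 by joined name, and CSTF1 and CLP1 for 4.

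RBBP6 had the most windows, 200 over all lists, followed by PCF11 with 145, PAPOLA with 105 and CSTF3 with 90. PABPN1 had 57, CSTF1 35, PAPOLG 31, CSTF2T 24, CSTF2 19 and CLP1 5. Per 10 kb of gene, PABPN1 came first with 121, followed by RBBP6 with 60.1, CSTF2T with 58.4 and PCF11 with 47.8, and PAPOLG last with 6.77. Among all genes of the CPSF6 list, which has a median of 9 windows per gene, 153 of 9517 had more windows than RBBP6 with 92. The RNPS1 list had 331 of 9831 genes with more than its 58. In the RBM22 list, with a median of 1 window per gene, 46 of 2617 genes had more than the 21 of RBBP6, and 128 had more than the 11 of PCF11. The 4 transcripts in the GRB2 list, by contrast, all stayed below its median of 22 windows per gene.

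**Figure D1:**
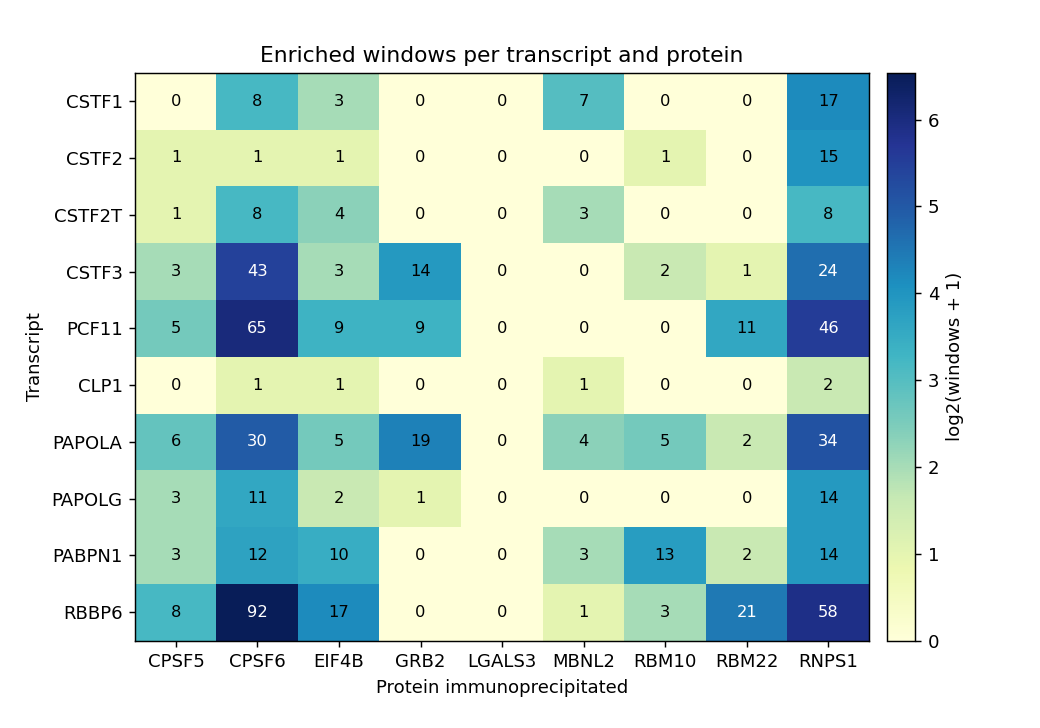
Number of enriched windows in each transcript (down the page) for each immunoprecipitated protein (across), with joined names included and the colour on a log2(windows + 1) scale. The CPSF6 and RNPS1 columns hold most windows, RBBP6 has 92 and 58 there, and the LGALS3 column is 0 throughout.

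The parts of the transcripts that were listed differed by protein. In EIF4B, 55.6% of the 45 windows of these transcripts lay in 5' UTRs, against 30.6% of the whole list. A 5' UTR or start codon window of EIF4B was found in 9 of 10 transcripts by exact name, against 80.3% of all gene names and 89.5% of protein-coding ones. In RNPS1, a splicing activator that joins the exon junction complex, 75.7% lay in coding sequence, against 63.2% of the list, and in CPSF6 57.3%, against 46.3%. Each of these 2 proteins had a coding window in 9 of 10 transcripts, against 75.3% of all gene names (83.8% of protein-coding ones) for RNPS1 and 68.1% (75.8%) for CPSF6. CPSF6 windows in deep introns were fewer here, at 11.4%, than in the list, at 23.4%. In RBM22, a spliceosome component, 80.0% lay in coding sequence, against 27.9% of the list, but all 28 of those windows were in 2 of 10 transcripts, PCF11 and RBBP6, against 5.58% of all gene names with such a window. Counting each gene once, the RBM22 coding share was 43.1%. Windows of a gene are not independent, so these shares were not tested.

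**Figure D2:**
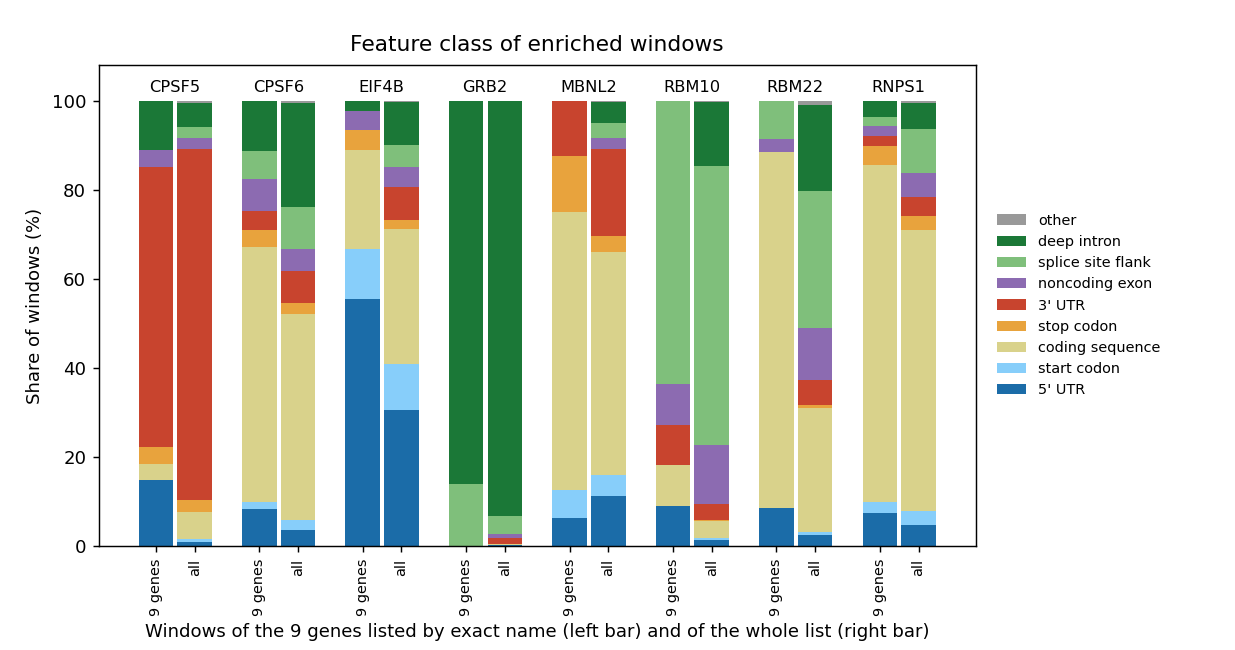
Share of windows (%) in each feature class, for the 9 genes listed by exact name (left bar of each pair) and for the whole list (right bar). The 3' UTR share of CPSF5 was 63.0% in the 9 genes and 78.9% in the list, and the coding share of RBM22 was 80.0% and 27.9%.

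CstF contains the subunits CstF50, CstF64 and CstF77, encoded by CSTF1, CSTF2 and CSTF3, and CSTF2T encodes a second CstF64. CSTF1 windows were spread over the coding region. RNPS1 had 17 windows in CSTF1, 10 of them in coding sequence, among them the strongest RNPS1 window of the set (chromosome 20, 56397207 to 56397298). It held 39 IP reads and 0 input reads, with log2 enrichments of 5.41 and 5.59. Its lower value was at the 99.1st percentile of the RNPS1 list. The start codon window of CSTF1 (56395553 to 56395632) was in 4 lists, with lower values of 4.57 for MBNL2, a muscleblind splicing regulator, 3.95 for RNPS1, 3.73 for EIF4B and 3.15 for CPSF6. The MBNL2 value was the strongest of that protein in the set (31 IP and 3 input reads, 4.57 and 4.60). MBNL2 had 7 of its 16 windows in CSTF1, from the start codon to the 3' UTR. An annotated stop codon 10.7 kb before the end of CSTF1 (56395653 to 56395732), which belongs to a short annotated form, was listed for RNPS1, EIF4B and MBNL2, at lower values of 2.71, 2.26 and 2.04. That window also carries an intron annotation.

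CSTF2 was listed almost entirely by RNPS1. It had 15 RNPS1 windows, 12 of them in coding sequence, and 1 window each for CPSF5, CPSF6, EIF4B and RBM10. The RNPS1 windows held 419 IP and 21 input reads, and their lower values ran from 1.66 to 4.93. The CPSF6 window (chromosome X, 100822251 to 100822335) held 35 IP and 4 input reads, with values of 3.14 and 3.73. In the RNPS1 list the same window had 34 IP and 4 input reads, with values of 1.95 and 5.77, so the replicates differed widely there. The CPSF5 window lay in the 3' UTR, 0.672 kb before the gene end, next to an RNPS1 window at 0.762 kb.

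CSTF2T, an intronless retrogene copy of CSTF2, had a different pattern. All 8 of its RNPS1 windows were also its 8 CPSF6 windows, in coding sequence (chromosome 10, 51698187 to 51699449). They held 254 IP and 24 input reads for RNPS1, and 241 and 35 for CPSF6. EIF4B had 4 windows from the first base into the coding sequence, with a gap before the last. CPSF5 had 1 window in the 3' UTR, 2.07 kb from the gene end. MBNL2 had 3 coding windows, the strongest (51698964 to 51699060) with 14 IP and 3 input reads and values of 3.89 and 5.08. Whether reads were split between CSTF2 and its copy was not tested. CSTF2T also lies within an intron of PRKG1 on the other strand, and the listed windows are on the CSTF2T strand. Whether reads of PRKG1 entered them was not tested.

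CSTF3 was the CstF transcript with most windows, and most of its CPSF6 windows were outside coding sequence (30 of 43). An internal stop codon and 3' UTR lie about 19.6 kb from the start and 57.3 kb before the gene end. The stop codon and 3' UTR windows listed there also carry an intron annotation. The stop codon window there (chromosome 11, 33141879 to 33141978) held 170 IP and 10 input reads for RNPS1, with values of 4.44 and 4.47. For EIF4B it held 37 and 12 reads, with values of 2.58 and 3.12. The adjoining 3' UTR window (33141821 to 33141878) was the strongest RBM10 window of the set, with 121 IP and 4 input reads and values of 4.09 and 4.81. CPSF6 had 2 windows at this internal end, with 221 IP and 27 input reads. CPSF5 had none in it, but 2 deep intron windows farther on, 21.9 and 23.7 kb from the start, with lower values of 2.18 and 2.40. Its only CSTF3 window in a 3' UTR lay 0.124 kb before the gene end (33084667 to 33084750, 33 IP and 1 input reads, 4.05 and 5.31).

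Farther along CSTF3, CPSF6 and RNPS1 shared a stretch of intron of 1799 nt (33124715 to 33126513). CPSF6 had 14 windows in it, with 615 IP and 162 input reads and lower values up to 2.96. RNPS1 had 7, with 129 IP and 14 input reads and lower values up to 3.23. No other protein had a window in that stretch. The 14 GRB2 windows of CSTF3 lay at the other end, 0.832 to 5.61 kb from the start, with no window in common with any other protein.

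PCF11, which binds the RNA polymerase II tail, had 65 CPSF6 and 46 RNPS1 windows with joined names. Its first window (chromosome 11, 83157078 to 83157167), over the transcript start, was in 4 lists. CPSF6 had 116 IP and 3 input reads there, with values of 4.87 and 4.98, a percentile of 99.2 in its list. RNPS1 had 186 and 7 reads (4.01 and 4.40), EIF4B 36 and 4 (2.90 and 4.06) and RBM22 22 and 3 (2.00 and 4.27). All 4 were therefore enriched at the very start, and the RBM22 replicates differed most.

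Beyond the first exon of PCF11, an annotated noncoding exon from 0.548 to 1.60 kb held 7 CPSF6, 4 RNPS1, 2 EIF4B, 1 RBM22 and 1 CPSF5 windows. The CPSF5 window (83158688 to 83158783) had 24 IP and 11 input reads, with values of 1.52 and 2.58, and was shared with CPSF6 (68 and 24 reads, 1.99 and 2.36). A second CPSF5 window lay in the intron beyond it, 1.80 kb from the start (26 and 6 reads, 1.64 and 2.75). Both CPSF5 values were among the lowest of that list, at the 3.21st and 5.39th percentiles. The 3 CPSF5 windows in the PCF11 3' UTR were higher, with lower values of 2.96, 3.88 and 3.66, and lay 1.72 to 2.41 kb before the annotated end. The highest (83185091 to 83185189) held 13 IP and 0 input reads. GRB2, a signalling adaptor, had 9 windows in the intron from 4.37 to 6.0 kb. One of them (83162518 to 83162612) was the strongest GRB2 window of the set, with 34 IP and 0 input reads and values of 4.39 and 5.32.

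Of the 11 RBM22 windows of PCF11, 9 lay in coding sequence, between 8.51 and 12.8 kb from the start, with 249 IP and 78 input reads and lower values of 1.52 to 2.60. CLP1, the RNA kinase subunit of CFIIm, had 5 windows. Its first 99 nt (57657762 to 57657860) were listed for RNPS1 (30 IP and 0 input reads, 4.21 and 5.22) and EIF4B (20 and 0 reads, 4.10 and 5.15). The other 3 were coding windows: 1 for MBNL2 and, next to it, 1 shared by CPSF6 and RNPS1, with lower values from 2.63 to 3.06.

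PAPOLA, the canonical poly(A) polymerase gene, had strong EIF4B windows along its 5' UTR. The first (chromosome 14, 96502382 to 96502451) had 186 IP and 2 input reads, with values of 5.16 and 5.57, and the next 2 had lower values of 4.54 and 4.09. RBM22 windows followed directly at the first 5' splice site. The window next to that site (96502601 to 96502700) held 59 IP and 1 input reads, with values of 3.02 and 5.98, the highest lower value of RBM22 in the set. The next 100 nt held 52 and 2 reads, with values of 2.89 and 3.97. No other protein was listed in either RBM22 window.

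At the distal end of PAPOLA, CPSF5 and CPSF6 shared the last 2 windows. The last one (96567018 to 96567116), which ends at the annotated end of the gene, had 28 IP and 0 input reads for CPSF5, with values of 4.70 and 5.16. CPSF6 had 33 and 3 reads there, with values of 3.58 and 4.43. The window before it had 86 and 20 reads for CPSF5, with values of 1.64 and 4.81, and 39 and 15 for CPSF6, with values of 2.13 and 2.20. The CPSF5 replicates thus differed widely in the window before the last one and less in the last one. PAPOLA had a second group of CPSF5 windows at an internal end, 30.2 to 32.4 kb from the start. They covered an internal stop codon (41 and 3 reads, 2.77 and 4.84) and 2 internal 3' UTR windows (20 and 6 reads, 1.87 and 2.73, and 15 and 1 reads, 2.79 and 3.94). The CPSF5 q-value was 0.0292 at the stop codon, and 0.196 and 0.0927 in the 3' UTR windows. All of these windows also carry an intron annotation. CPSF6 had 66 IP and 24 input reads in 2 windows of the same region, 1 of them shared.

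GRB2 windows in PAPOLA formed a block. Of its 19 windows, 17 lay within 2076 nt of intron and splice site flank (96540167 to 96542242), with 813 IP and 77 input reads. The strongest (96541644 to 96541742) had 40 and 1 reads, with values of 4.25 and 4.72, and the next (96540561 to 96540658) had 67 and 3 reads, with values of 3.63 and 5.24. RBM10 and RNPS1 had the same 1 window at the downstream edge of that stretch, not shared with GRB2. RBM10, a regulator of exon inclusion, had 4 of its 5 PAPOLA windows in splice site flanks, the strongest at a 3' splice site (96544049 to 96544148) with 35 IP and 2 input reads and values of 3.49 and 4.88. Another (96532421 to 96532510), just before the internal stop codon, had 29 and 2 reads, with values of 3.09 and 5.04. MBNL2 had its strongest PAPOLA window in the 3' UTR (96565739 to 96565837), with only 8 IP and 5 input reads and values of 3.50 and 4.20.

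PAPOLG, which encodes a nuclear poly(A) polymerase related to PAPOLA, carried the strongest EIF4B window of the set. It covers the transcript start (chromosome 2, 60756266 to 60756336) and had 26 IP and 0 input reads, with values of 5.22 and 5.67. Its 3 CPSF5 windows all lay in the 3' UTR, 3.69 to 4.58 kb before the annotated end, and none lay nearer to it. Their lower values were 2.21, 2.71 and 3.47, and the higher ones 4.12, 5.73 and 4.26. CPSF6 had no window in the PAPOLG 3' UTR. Its strongest PAPOLG window was in coding sequence (60794964 to 60795020), with 17 IP and 0 input reads and values of 4.48 and 4.63.

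**Figure D3:**
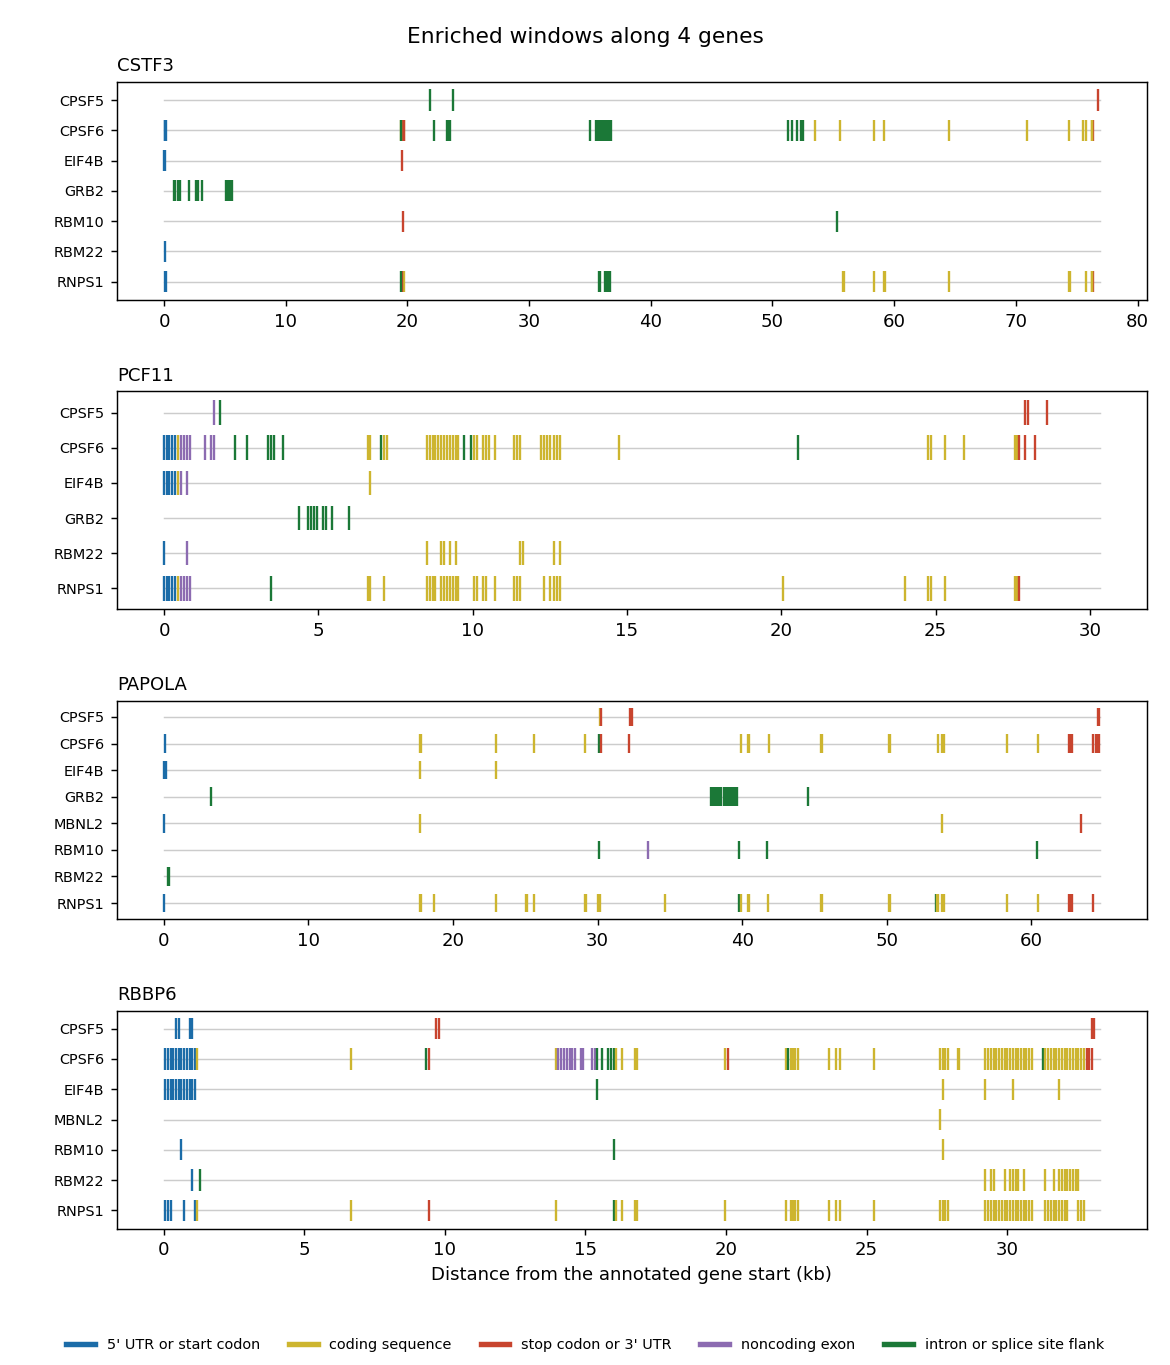
Position of each enriched window along CSTF3, PCF11, PAPOLA and RBBP6, in kb from the annotated gene start, with 1 line per protein and colour for the feature class. GRB2 windows sit in 1 block of 17 in PAPOLA, and RBM22 coding windows in RBBP6 lie between 29.2 and 32.5 kb. CPSF5 windows occur at internal as well as distal ends. The internal CPSF5 windows in 3' UTRs had q-values from 0.0927 to 0.196, and the internal stop codon window of PAPOLA 0.0292.

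PABPN1 differed from the other transcripts in its RBM10 windows. RBM10 had 13 windows in it, more than the 11 in the 9 other transcripts together, and 11 of them were in the 3' UTR class with 2969 IP and 200 input reads. Of these, 8 (chromosome 14, 23324300 to 23325151) carried an intron annotation as well, which places them in the terminal intron of other annotated forms. These 8 held 1303 IP and 87 input reads, with lower values of 1.43 to 3.87. The highest (23324962 to 23325056) had 193 and 4 reads, with values of 3.87 and 5.85. In the same stretch RNPS1 had 3 windows (93 and 21 reads), RBM22 had 2 (179 and 47), EIF4B had 1 (33 and 24), and CPSF5, CPSF6 and MBNL2 had 0 in this class. Within the 3' UTR class, the terminal intron was thus listed for 4 proteins, with the most windows for RBM10. The stop codon window just before this stretch (23324200 to 23324299) also carries an intron annotation. It was listed for CPSF6 (295 IP and 58 input reads), RBM10 and RNPS1.

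One PABPN1 window in the last exon (23325583 to 23325681), 0.531 kb before the gene end, was in 6 lists, more than any other window of the 10 transcripts. Its lower and higher values were 3.34 and 3.37 for RBM10 (398 IP and 19 input reads), 2.21 and 2.33 for EIF4B (177 and 52) and 2.11 and 2.18 for CPSF5 (162 and 62). They were 1.83 and 2.48 for CPSF6 (291 and 63), 1.72 and 2.05 for RNPS1 (99 and 20) and 1.47 and 1.60 for MBNL2 (55 and 28). By percentile within its own list, the window stood highest for RBM10 (68.5) and lowest for RNPS1 (7.06) and MBNL2 (8.65). CPSF5 was highest nearer the end, 0.235 kb before it, with 157 IP and 24 input reads and values of 3.39 and 3.43. At the 5' end, EIF4B had 590 IP and 20 input reads over the first 13 nt (3.96 and 4.25) and 1659 and 79 over the start codon (3.62 and 3.63). RNPS1 was highest in a coding window (23323965 to 23324052) with 287 and 13 reads and values of 4.60 and 4.98.

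**Figure D4:**
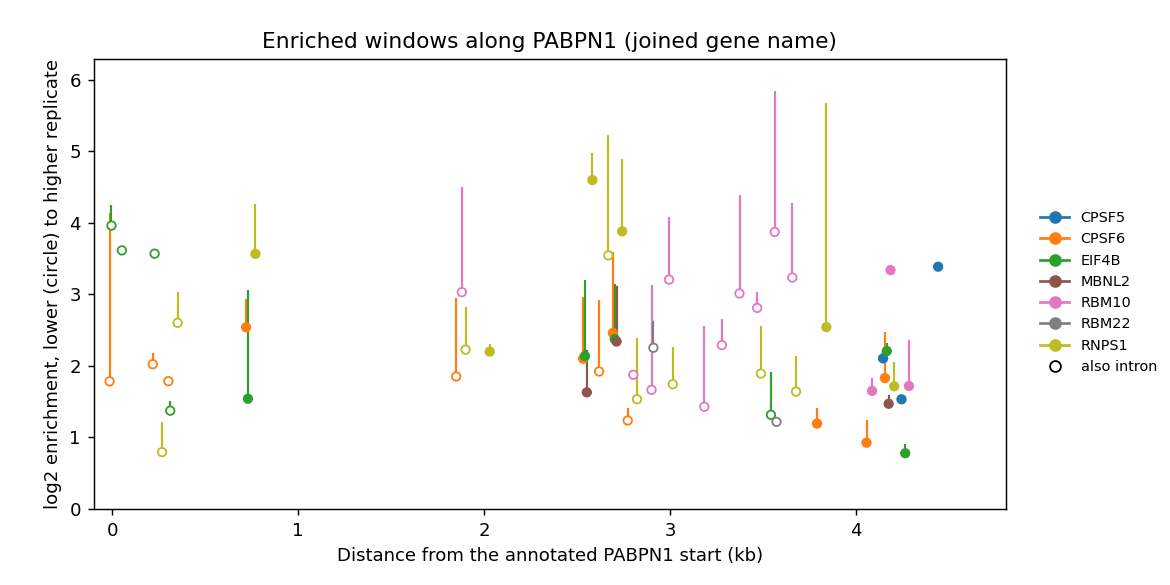
Log2 enrichment of each PABPN1 window, from the lower (circle) to the higher replicate, by distance from the annotated start in kb and coloured by protein. Open circles mark windows that also carry an intron annotation, among which the RBM10 values reach 3.87 near 3.55 kb.

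RBBP6, which encodes a large protein with a ubiquitin-like and a RING domain, was the transcript with the strongest CPSF6 windows. Of the 40 CPSF6 windows of these transcripts above the 90th percentile of that list, 29 were in RBBP6. The strongest (chromosome 16, 24561664 to 24561715) lay in coding sequence and had 45 IP and 0 input reads, with values of 6.15 and 6.29. The next (24568745 to 24568841) had 186 and 6 reads, with values of 5.44 and 5.66. The same window was listed for RNPS1 (30 and 0 reads, 5.33 and 5.86), EIF4B (15 and 2, 3.80 and 4.18) and RBM22 (38 and 8, 2.21 and 3.45). All 58 RNPS1 windows of RBBP6 were among its 92 CPSF6 windows. In coding sequence CPSF6 had 56 windows with 7292 IP and 556 input reads, and RNPS1 51 with 1783 and 153. After the window above, the strongest for RNPS1 (24571464 to 24571561) had 23 and 0 reads, with values of 5.14 and 5.46.

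The RBM22 windows of RBBP6 were packed near its 3' end. All 19 coding windows lay 29.2 to 32.5 kb from the start of a gene of 33.3 kb (24568745 to 24572149), with 542 IP and 155 input reads and lower values of 1.41 to 2.96. The highest (24569622 to 24569719) had 29 and 4 reads, with values of 2.96 and 3.67. Of the 630 genes with RBM22 windows in coding sequence, 22 had more than 19. RBM22 had a further window next to the 5' splice site after the first coding exon (24540793 to 24540892), with 97 and 13 reads and values of 2.32 and 3.35.

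The 5' UTR of RBBP6 was covered from end to end. EIF4B and CPSF6 each had 11 windows in it, with 2636 IP and 133 input reads for EIF4B and 1727 and 162 for CPSF6. The EIF4B lower values ran from 2.38 to 4.69 and the CPSF6 ones from 1.44 to 2.76. The strongest EIF4B window (24540434 to 24540529) had 18 IP and 0 input reads, with values of 4.69 and 4.93. CPSF5 had 4 windows there, with 160 and 42 reads and lower values of 1.35 to 2.57, all of them shared with CPSF6. These 4 were the only CPSF5 windows in a 5' UTR among the 10 transcripts, a class that makes up 0.938% of the CPSF5 list. Farther along, an internal stop codon (24548945 to 24549035) was listed for CPSF6 and RNPS1, and the internal 3' UTR after it, 9.70 to 9.79 kb from the start, for CPSF5 with 40 IP and 8 input reads in 2 windows. The q-values of these 2 CPSF5 windows were 0.184 and 0.162. The windows at this internal stop codon and 3' UTR also carry an intron annotation. An exon annotated as long noncoding RNA (24553558 to 24554938) held 11 CPSF6 windows with 427 and 61 reads and none of any other protein. The strongest of these (24553952 to 24554050) had 39 and 1 reads and values of 5.04 and 5.53.

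CPSF5 windows in 3' UTRs were then placed relative to the annotated gene ends. By exact name there were 17, in 7 of 10 transcripts, against 53.8% of all gene names and 60.0% of protein-coding ones with such a window. Of the 17, 13 lay within 5 kb of the gene end and 4 at the internal ends of PAPOLA and RBBP6. The q-values of these 4 ran from 0.0927 to 0.196, so none would be kept at the alternative limit of 0.05. Some of the 13 also lay above 0.05, the highest at 0.181. The 13 were 49 to 4581 nt from the end, with a median of 1721 nt, and 3 were within 200 nt. CPSF6 had 11 such windows, in 4 of 10 transcripts, against 33.3% of all gene names and 37.1% of protein-coding ones with one. Its 10 distal windows had a median distance of 409 nt, with 2 within 200 nt. The ranges overlapped, and with so few windows the distances were not compared by a test. The annotated end is the most distal one, so a window near another poly(A) site counts as far from it. Both proteins had 3' UTR windows in CSTF3, PAPOLA, PCF11 and RBBP6, and in PABPN1 by joined name, but in CSTF3 at different ends.

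**Figure D5:**
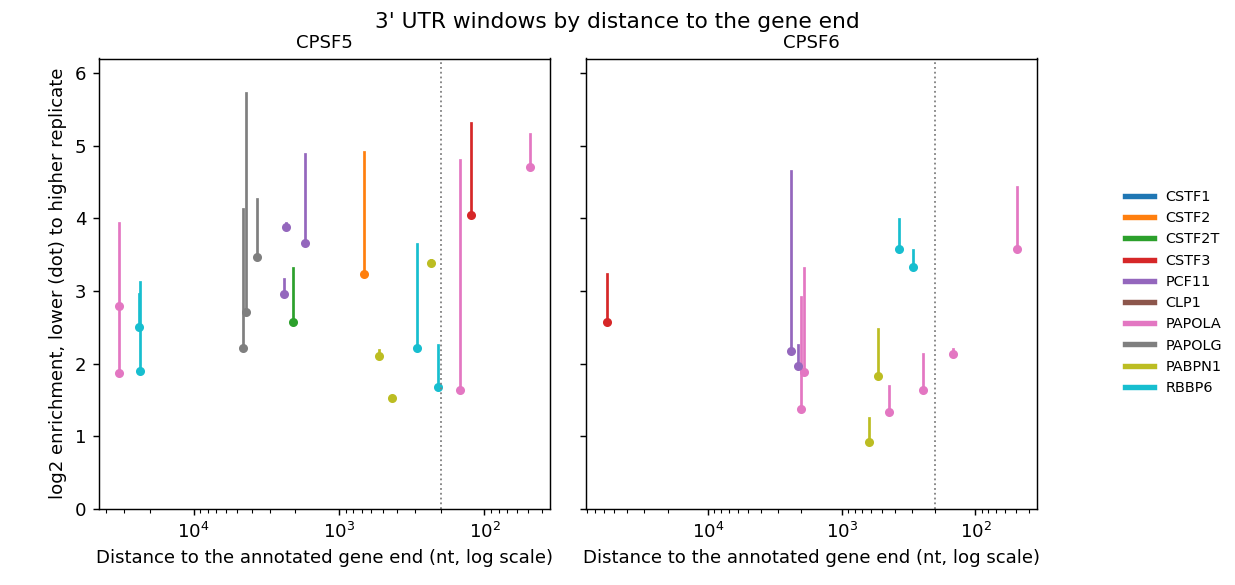
Log2 enrichment of CPSF5 (left) and CPSF6 (right) 3' UTR windows, from the lower (dot) to the higher replicate, by distance to the annotated gene end in nt on a log axis that runs towards the end. The dotted line is at 200 nt, PABPN1 is included by joined name, and the last PAPOLA window, 49 nt from the end, has the highest lower value for CPSF5, 4.70.

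CPSF6 and RNPS1 had more windows in common than any other pair, 166, 65.1% of the CPSF6 and 77.6% of the RNPS1 windows of the 9 exactly named transcripts. In the whole lists the same shares were 56.3% and 57.3%. By transcript, 58 were in RBBP6, 41 in PCF11, 22 in PAPOLA and 20 in CSTF3. RBM22 had 31 of its 35 windows in common with CPSF6 (88.6%), against 68.8% in the whole list, and 27 with RNPS1 (77.1%), against 49.7%. Most of these windows were in PCF11 and RBBP6. CPSF5 had 10 of its 27 in common with CPSF6 (37.0%), against 14.1% in the whole list, and 1 with RNPS1. Of the 10 shared with CPSF6, 4 lay in the 5' UTR of RBBP6. GRB2 had 0 of its 43 windows in common with any other protein, and in the whole list it shared less than 0.5% with each, so 0 of 43 is near the background. Of 379 distinct windows, 184 were in 1 list, 134 in 2, 50 in 3 and 11 in 4.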

How the data were processed

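The 9 deposited tables of eCLIP windows, 1 per protein, were used. Coordinates are 1-based in hg38, a build named per the submitters' processing notes. Aligner, caller and annotation: not given in the sources used here. As deposited, IP and input counts are whole reads per window that the authors summed over 2 replicates. The log2 odds ratios were deposited by the authors as lower, mean and higher value over replicates, and describe windows within a list. The p-values and q-values were also deposited by the authors, with a largest q-value of 0.200, and the GC fraction was deposited per window.

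The 10 genes, the 20 other pathway genes and the feature classes were chosen with earlier results of these data known. Gene names were matched exactly, and joined names were added as an alternative. Splice site flanks are the 500 nt next to a splice site and deep introns lie beyond. Distances run from a window's centre to the gene start or end in RefSeq (GRCh38.p14), and an end more than 5000 nt away was called internal. All stop codon and 3' UTR windows called internal also carry an intron annotation. The background is the share of all listed gene names with a window in the list, the percentile is the rank of the lower value in its list, and no test was run. Named were all 10 genes, the 3 strongest windows per protein with at least 5 windows, the lowest or highest of the pathway list, and the 3 nearest genes to 2 transcripts. Windows of internal ends and clusters were named after their values were seen. Alternatives were a q-value of at most 0.05, merged or weighted windows, windows with an input read, at least 3 windows per gene, 100 nt in place of 200 nt and, added after the data were seen, protein-coding genes as the background. The counting was tested on simulated data. Python 3.11.15, numpy 2.4.6, pandas 2.3.3, scipy 1.17.1 and matplotlib 3.10.9 were used.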

Additional observations from a re-analysis of the deposited data

How the results depend on the processing

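At q-values up to 0.05 for each replicate, the windows by exact name fell to 12 for CPSF5, 19 for GRB2, 10 for MBNL2, 3 for RBM10 and 11 for RBM22, and the transcripts listed to 2 each for RBM10 and RBM22. Shared windows then numbered 101 for CPSF6 and RNPS1, 5 for CPSF5 and CPSF6 and 10 for CPSF6 and RBM22. Merging adjoining windows left 105 stretches for CPSF6, 23 for EIF4B, 19 for GRB2, 21 for RBM22 and 103 for RNPS1. Joined names raised RBM10 to 24 windows. Where a transcript needed at least 3 windows, MBNL2 listed 3, RBM10 2 and RBM22 2. Counting each gene once gave coding shares of 71.1% for CPSF6 and 43.1% for RBM22, and weighting by IP reads gave 87.2% in 5' UTRs for EIF4B and 60.9% in coding sequence for RNPS1. Within 100 nt of the gene end, 1 window each remained for CPSF5 and CPSF6. The strongest window of a transcript was counted as changed in value in 13 of 51 cases when ranked by the mean, and in 15 of 49 when an input read was required. Not every change was counted, and some of those counted were smaller than the gap between the 2 replicate values. With protein-coding genes alone as the background, an alternative chosen after seeing the data, the share listed was 65.4% for CPSF5, 86.6% for CPSF6, 93.4% for EIF4B and 23.7% for RBM22. No paired analysis was possible because the reads were summed over replicates, and for the same reason no replicate could be left out.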

Other observations

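The other 20 genes of the 3' end machinery were listed as follows: 20 of 20 for CPSF6, EIF4B and RNPS1, 17 for CPSF5 and RBM10, 16 for MBNL2, 13 for GRB2, 9 for RBM22 and 1 for LGALS3. The shares of all gene names were 84.2%, 89.2% and 87.0% for CPSF6, EIF4B and RNPS1, 61.1% for CPSF5, 45.1% for RBM10, 62.2% for MBNL2, 46.7% for GRB2, 23.2% for RBM22 and 3.27% for LGALS3. The LGALS3 gene was PABPC1, the cytoplasmic poly(A)-binding protein gene, with 2 windows. The median was 26.5 CPSF6 windows and 29 RNPS1 windows per gene, with the most in CPSF6 itself for CPSF6 (69) and in CPSF1, the largest CPSF subunit gene, for RNPS1 (75). XRN2, the exonuclease gene of transcription termination, had 159 GRB2 windows, more than any of the 10 transcripts, and WDR82 had 36 CPSF5 windows. In CPSF5, 16 of the 20 had a 3' UTR window, against 53.8% of all gene names and 60.0% of protein-coding ones. In EIF4B 20 of 20 had one in the 5' UTR or at the start codon, against 80.3% and 89.5%. CPSF4 had the most RBM10 windows (25), SYMPK, a scaffold gene, the most EIF4B windows (18), PABPC4 the most MBNL2 windows (27) and CPSF1 and CPSF4 the most RBM22 windows (4 each). The 21 RBM22 windows in RBBP6 and 11 in PCF11 exceeded that highest value of the other genes.

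By the Euclidean distance of log2(windows + 1) over 9 lists and 4 regions, the genes nearest to RBBP6 were SCAF11 at 4.62, VCAN at 4.95 and NFAT5 at 5.35, against a median of 10.4 over all genes. For PAPOLA, which tied with RBBP6 for the most CPSF5 windows in the 3' UTR, they were CEP85 at 2.88, SF3A3 at 3.14 and NUB1 at 3.23, against a median of 7.80.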
